A study of Mus musculus with 19 samples.

Results

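The 138 genes described here are the variable segments of the T cell receptor alpha chain (114 Trav genes) and beta chain (24 Trbv genes). They are every gene, of 27179 listed, whose symbol starts with Trav or Trbv, and 13 of them are listed in capitals. The annotation describes 134 as V segments and 4 as pseudogenes. An RPKM (reads scaled by transcript length and library size) of at least 0.5 in at least 4 mice was reached by 22 Trbv and 66 Trav genes, and these 88 were tested. The other 50 were not tested: 36 Trav genes had reads but lay below that level, and Trbv11, Trbv18 and 12 Trav genes had no read in any mouse.

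Alpha beta T cells recognize peptides held by MHC molecules through a receptor whose chains are assembled in the thymus, where each developing cell joins a V segment to a J segment, with a D segment between them in the beta chain. The V segment encodes most of the variable domain, including the loops that contact the MHC molecule, and each mature T cell and its descendants keep the segments that the cell chose. In the spleen, RNA of V genes therefore comes from many T cell clones together, and it is read here as the summed use of each segment, without the joined D, J or C parts.

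The study immunized mice of the FCG model, in which the sex chromosomes and the gonads vary independently. All mice had C57BL/6J mothers and fathers of the strain B6.Cg-Tg(Sry)2Ei Srydl1Rlb/ArnoJ. In that line the testis-determining gene Sry is deleted from the Y chromosome and carried as a transgene on an autosome. The XXF group (5 mice, F1 to F5) had XX chromosomes, no Sry and ovaries, and the XYF group (4 mice, F6 to F9) had an X chromosome, the Y chromosome without Sry, and ovaries. The XXM group (5 mice, 2, 5, 6, 7 and 8) had XX chromosomes, the Sry transgene and testes. The XYM group (5 mice, 9, 12, 13, 15 and 16) had an X chromosome, the Y chromosome without Sry, the Sry transgene and testes. Every mouse received heat-killed Streptococcus pneumoniae into the peritoneum, and its splenocytes were collected 7 days later, so no group without immunization exists. No age is stated for these mice in the available descriptions. Since the transgene stays in every male, an effect of testes cannot be told apart from an effect of the transgene in other cells. As inferred from the RPKM values, between 11263753 and 19962022 reads were counted on genes per mouse. Of these, 593 (XXM 2) to 3391 (XXF F5) lay on Trbv genes and 121 (XXM 2) to 951 (XXF F5) on Trav genes.

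Markers of the cells that a spleen holds were all present. Each of the 10 T cell markers, 8 B cell markers, 8 myeloid markers and 6 NK cell markers on the lists had reads, with Cd2, Cd79b, S100a9 and Gzma the most abundant of each. XYF F9 and XYM 9 stood apart from the rest. The 8 myeloid markers had 449017 reads in XYF F9 and 451351 in XYM 9, against 35833 to 158039 in the other mice. Rag1, which encodes a subunit of the recombinase that joins receptor gene segments in immature lymphocytes, had 174 reads in XYF F9 and 505 in XYM 9, against 10 to 118 elsewhere. The same 2 mice had the lowest T cell marker levels of their gonadal sex, and each count of called Trav and Trbv genes below is also given without them, while counts over lists of other genes are for all mice. Whether the myeloid excess lowered the share of T cell RNA in these libraries was not tested.

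The segments differ in how far their reads can be told apart, and the sequences of 2 sets show why. The first set holds the Trbv13 genes, the most used Trbv subgroup, and the second holds Trav16 and its near-identical copies from the duplicated part of the alpha locus. All 6 are the stretch of the V exon common to their set, in reading direction from build GRCm38, each on the + strand, and capitals mark the positions at which members of a set differ (49 of 294 in Trbv13, 6 of 300 in Trav16). The Trbv13 exons lie at chr6:41116175-41116468 (Trbv13-1), chr6:41121539-41121832 (Trbv13-2) and chr6:41130292-41130585 (Trbv13-3).
Trbv13-1: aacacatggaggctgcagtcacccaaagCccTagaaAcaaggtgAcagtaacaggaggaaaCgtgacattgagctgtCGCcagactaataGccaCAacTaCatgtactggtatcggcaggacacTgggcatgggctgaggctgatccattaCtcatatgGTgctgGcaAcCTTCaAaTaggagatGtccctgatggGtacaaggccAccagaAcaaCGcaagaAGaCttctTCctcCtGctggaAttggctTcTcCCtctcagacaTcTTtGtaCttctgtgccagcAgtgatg
Trbv13-2: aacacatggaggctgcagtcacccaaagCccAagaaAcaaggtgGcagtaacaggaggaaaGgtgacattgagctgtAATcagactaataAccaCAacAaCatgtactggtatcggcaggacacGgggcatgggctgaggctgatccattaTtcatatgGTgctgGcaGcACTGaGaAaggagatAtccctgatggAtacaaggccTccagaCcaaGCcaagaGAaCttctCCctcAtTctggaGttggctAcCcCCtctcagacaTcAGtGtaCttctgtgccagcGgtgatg
Trbv13-3: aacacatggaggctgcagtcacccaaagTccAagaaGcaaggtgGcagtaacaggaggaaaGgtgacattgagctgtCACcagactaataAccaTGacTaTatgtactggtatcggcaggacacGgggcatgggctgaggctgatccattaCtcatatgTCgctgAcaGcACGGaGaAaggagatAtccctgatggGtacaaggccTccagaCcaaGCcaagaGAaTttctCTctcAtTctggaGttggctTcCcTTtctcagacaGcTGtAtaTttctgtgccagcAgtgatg
The Trav16 exons lie at chr14:53743406-53743705 (Trav16), chr14:53047522-53047821 (Trav16d-dv11) and chr14:53351322-53351621 (Trav16n).
Trav16: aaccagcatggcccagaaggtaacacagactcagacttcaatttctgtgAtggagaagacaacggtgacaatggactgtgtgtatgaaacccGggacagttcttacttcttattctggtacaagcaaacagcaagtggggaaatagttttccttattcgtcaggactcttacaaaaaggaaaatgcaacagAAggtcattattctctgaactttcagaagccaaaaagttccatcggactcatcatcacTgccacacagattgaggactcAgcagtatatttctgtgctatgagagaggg
Trav16d-dv11: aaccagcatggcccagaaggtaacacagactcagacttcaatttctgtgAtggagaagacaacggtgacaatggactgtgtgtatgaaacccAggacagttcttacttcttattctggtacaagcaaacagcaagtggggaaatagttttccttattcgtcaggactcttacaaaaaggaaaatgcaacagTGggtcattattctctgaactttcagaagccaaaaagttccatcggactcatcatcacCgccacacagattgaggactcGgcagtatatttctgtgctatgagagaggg
Trav16n: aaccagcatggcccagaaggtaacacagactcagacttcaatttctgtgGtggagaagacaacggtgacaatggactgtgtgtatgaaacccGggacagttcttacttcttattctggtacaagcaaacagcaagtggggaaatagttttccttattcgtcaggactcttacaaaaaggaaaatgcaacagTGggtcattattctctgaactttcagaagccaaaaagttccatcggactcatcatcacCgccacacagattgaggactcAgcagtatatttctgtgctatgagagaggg

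Between Trbv13 V exons, identity was 88.8% for Trbv13-1 and Trbv13-2, 86.1% for Trbv13-1 and Trbv13-3 and 91.8% for Trbv13-2 and Trbv13-3. Over the whole coding part of the V exon, 301 to 304 bases with end gaps counted as differences, Trav16n was 97.7% identical to Trav16 and 98.0% to Trav16d-dv11. Windows of 51 bases, the length of a read, always hold a differing position in the Trbv13 genes, and long stretches of the Trav16 genes hold none. Fragments were read from both ends, and how far pairs of reads tell copies apart better than single windows was not tested. Of all windows of that length in the transcripts, 23 of 24 Trbv genes shared none with any other gene and Trbv12-2 shared a few with Trbv12-3 (99.1% its own). For Trav genes the median share of own windows was 30.5%, and 40 of 114 had no own window at all. Those 40 had between 0 and 64 reads over all mice (median 1), against a median of 97.5 for the 74 others, and 11 of the 12 Trav genes without a read were among them. Every window of Trav5n-4, which had 64 reads, also occurs in Trav5d-4, which had 0, so the listed numbers of such copies are uncertain. Both were named after their values were seen. How reads with several matches were counted is not known.

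**Figure D1:**
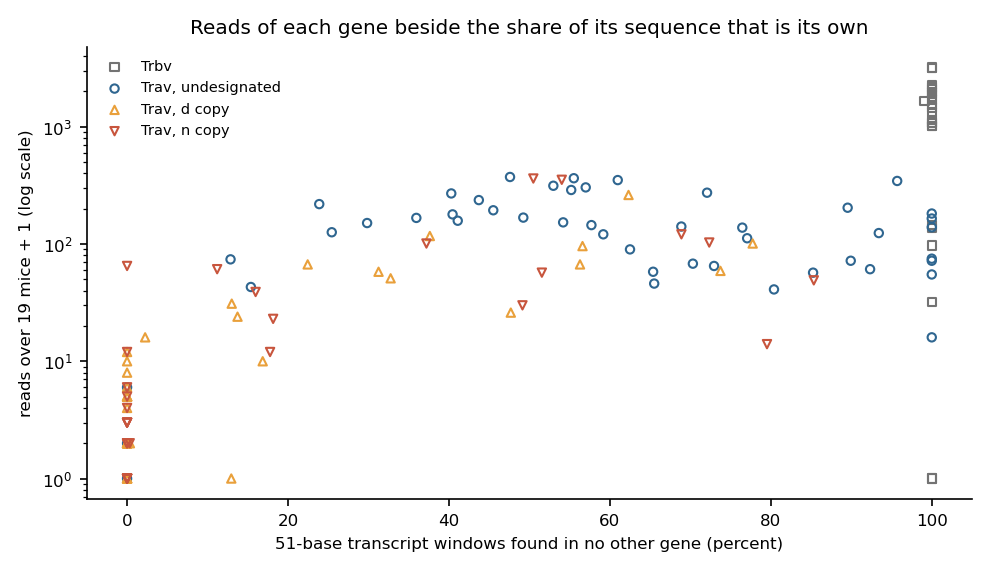
Each point is a member, with the percentage of its 51-base transcript windows found in no other gene on the x axis and its reads over the 19 mice plus 1, on a log scale, on the y axis; grey squares are Trbv, and blue circles, orange and red triangles are Trav genes without a letter, marked d and marked n. The Trbv genes sit at or near 100% and the 40 Trav genes at 0% have at most 64 reads.

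Among Trbv genes the mean RPKM over all mice ran from 29.7 for Trbv13-2 through 29.2 for Trbv3, 21.6 for Trbv13-1, 20.2 for Trbv13-3, 19.1 for Trbv16, 17.9 for Trbv15, 17.4 for Trbv1 and 16.1 for Trbv19. Trbv21, an annotated Trbv gene with 31 reads in all, was the lowest of those tested at 0.284. The 8 highest held 57.8% of the Trbv RPKM, and 20 of the 24 genes had a read in every mouse. Trbv11 and Trbv18 had no read, and a count of 0 (limit of 3 reads) allows each up to 0.00938% of the 31985 Trbv reads. For the 12 Trav genes without a read the same limit is 0.0319% of the 9402 Trav reads as counted. Since 11 of these 12 have no own window, their reads may be counted on other copies or not at all. The limit therefore does not bound the use of these segments. Trav use was spread more widely and lower. Trav4-4-dv10, which can also join the delta chain, had a mean RPKM of 3.47, Trav13-1 3.37, Trav16n 3.21, Trav3-3 3.17, Trav14n-3 3.04, Trav14-1 2.94, Trav16 2.80 and Trav8-1 2.73. These 8 held 29.0% of the Trav RPKM, and 26 of the 114 Trav genes had a read in every mouse. By copy of the duplicated region, 46 of 47 Trav genes without a letter had a read, as did 30 of 35 genes marked d and 26 of 32 marked n. Among the tested members the largest SD of log2(RPKM + 1) over the mice was that of Trbv13-1 among Trbv genes (1.04) and of Trav16n among Trav genes (0.83), and the smallest were those of Trbv21 (0.30) and Trav5-1 (0.29), both weakly expressed.

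V gene RNA made up a smaller share of the libraries of male mice than of female mice on average, and the amount per spleen was not measured. The log2 of the summed Trbv RPKM was 8.83, 9.09, 8.75, 8.99 and 9.14 in XXF mice (mean 8.96 ± 0.17 SD, n = 5) and 8.58, 8.85, 8.58 and 7.52 in XYF mice (8.38 ± 0.59 SD, n = 4). It was 7.15, 7.53, 7.16, 7.28 and 6.70 in XXM mice (7.16 ± 0.30 SD, n = 5) and 6.82, 7.88, 7.61, 7.95 and 7.60 in XYM mice (7.57 ± 0.45 SD, n = 5). Every female but XYF F9 lay above every male, and the mice within each gonadal sex overlapped between XX and XY. The log2 of the summed Trav RPKM was 7.29, 6.93, 6.48, 7.08 and 7.30 in XXF mice (7.02 ± 0.34 SD, n = 5) and 6.38, 7.0, 6.83 and 5.88 in XYF mice (6.52 ± 0.50 SD, n = 4). It was 4.87, 5.55, 5.31, 5.51 and 5.07 in XXM mice (5.26 ± 0.29 SD, n = 5) and 5.20, 6.46, 6.40, 6.30 and 6.54 in XYM mice (6.18 ± 0.55 SD, n = 5). Here all XXM mice lay below all females, whereas XYM 12, 13, 15 and 16 reached the range of XYF mice and XYM 9 lay among the XXM mice. Averaged over the sex chromosomes, males minus females was -1.30 for the summed Trbv level and -1.05 for Trav, and averaged over gonadal sex, XX minus XY was 0.08 and -0.21, less than the spread within groups, and -0.07, the opposite sign, and -0.37 when divided by the T cell markers described next. In bulk samples, fewer T cells and less V gene RNA per T cell cannot be told apart.

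The 10 T cell markers, which include the CD3 chains that carry the receptor's signal, moved beside the V genes. The log2 of their geometric mean RPKM was 6.41, 6.87, 6.71, 6.42 and 6.71 in XXF mice and 6.36, 6.72, 6.33 and 5.39 in XYF mice. It was 5.46, 5.52, 5.42, 5.06 and 4.98 in XXM mice and 4.76, 5.45, 5.35, 5.81 and 5.6 in XYM mice. XYF F9 alone of the females lay in the range of the males. Males minus females was -1.07, and 9 of the 10 markers were called lower in males. Divided by this marker level, the summed Trbv level differed by -0.23 between males and females and the summed Trav level by 0.02, so the Trav difference turned its sign. Within males the marker level differed little between XXM and XYM mice (-0.11). The summed Trav level per marker was -0.59, 0.03, -0.10, 0.45 and 0.09 in XXM mice and 0.44, 1.01, 1.04, 0.50 and 0.94 in XYM mice. XXM 7 was the only XXM mouse in the range of the XYM mice on that scale, at the level of XYM 9 and XYM 15. Relative to Trac, the constant segment that every alpha chain transcript carries, the log2 summed Trav level was -1.72 ± 0.34 (SD, n = 5) for XXM, -0.98 ± 0.30 (SD, n = 5) for XYM, -1.37 ± 0.48 (SD, n = 5) for XXF and -1.41 ± 0.16 (SD, n = 4) for XYF mice. Relative to the beta constant segments Trbc1 and Trbc2, the log2 summed Trbv level was -0.32 ± 0.31 (SD, n = 5) for XXM and 0.26 ± 0.19 (SD, n = 5) for XYM mice. It was 0.13 ± 0.37 (SD, n = 5) for XXF and -0.16 ± 0.12 (SD, n = 4) for XYF mice. On this scale males minus females was -0.01 and XXM minus XYM was -0.58.

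**Figure D2:**
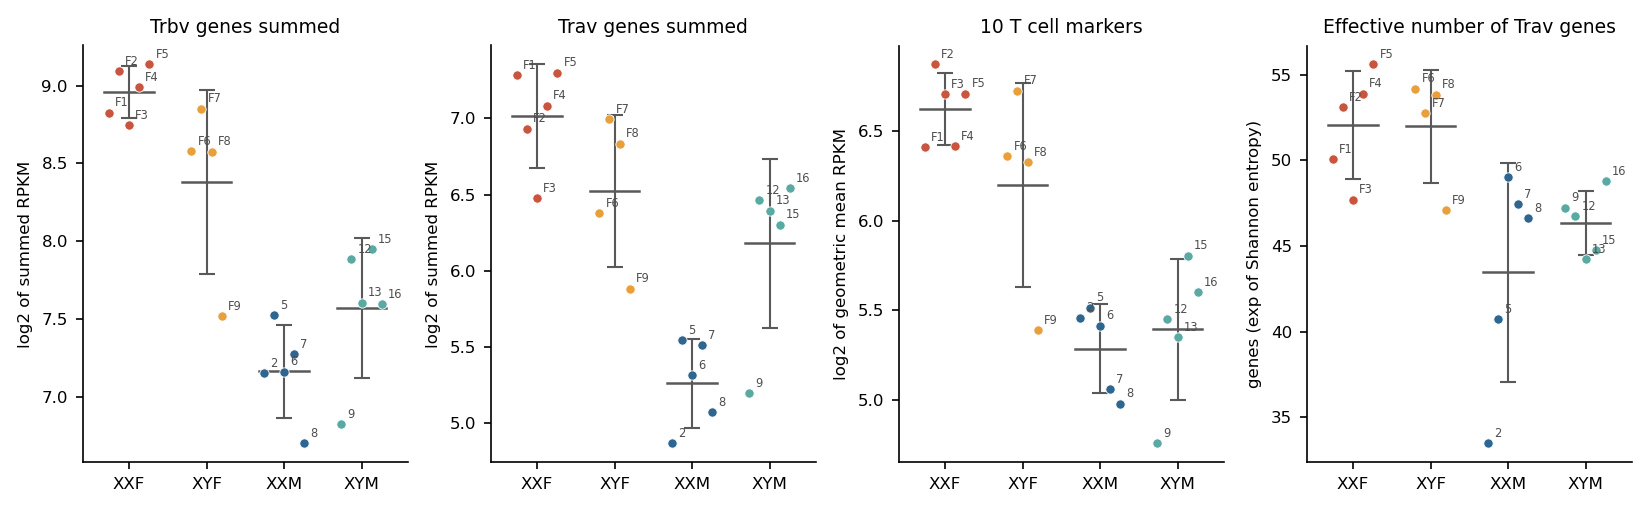
Each point is a mouse, labelled with its number, by group on the x axis, with the line at the mean and bars of 1 SD; the y axes are the log2 of the summed Trbv RPKM, of the summed Trav RPKM and of the geometric mean RPKM of 10 T cell markers, and the effective number of Trav genes. Summed Trbv use has group means of 8.96 (XXF), 8.38 (XYF), 7.16 (XXM) and 7.57 (XYM), and XYF F9 and XYM 9 are the lowest mice of their groups in the first 3 panels.

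Males were compared with females, averaged over XX and XY, to ask whether gonadal sex moves the use of V segments after immunization. Of the 88 tested members, 40 were called lower in males (18 of 22 Trbv and 22 of 66 Trav genes) and none was called higher, where 5.36% of all 14186 genes tested were called lower. Called means an adjusted p below 0.1 in limma and a change of more than 1.5 times in RPKM + 1. The added 1 shrinks the differences of weak genes, so these need a larger change in RPKM to be called, as most Trav genes do. Limma-voom called 62 of the 88, with all 40 among them, and the count ran from 4 to 69 over the alternatives. Of the 62, 19 were Trbv and 43 Trav genes. Summed RPKM, without the added 1, differed by -1.30 (Trbv) and -1.05 (Trav) on the log2 scale. The medians that follow therefore do not compare the chains. All 88 differences lay below 0, with a median of -1.11 for Trbv and -0.48 for Trav genes, against 0.02 over all genes. The expression filter favours this sign for weak genes: Trbv21, Trav7-1, Trav9n-1 and Trav13d-4, the last 2 named after their values were seen, reached an RPKM of 0.5 in females alone and none did in males alone, while 64 of the 88 passed the filter within each gonadal sex. The sign count, the medians and the count of called genes include these 4 and the other members outside the 64. They are not given for the 64 alone, so the sign count by itself decides nothing. Trav7-1 is also among the 40 called, and how many others of the 40 lie outside the 64 was not counted. Trbv13-1 had the largest difference and Trbv12-1 the lowest adjusted p. Trbv12-1 had log2(RPKM + 1) values of 4.05, 4.53, 4.18, 4.03 and 4.14 in XXF mice, 4.29, 3.94, 3.93 and 3.08 in XYF mice, 2.56, 2.22, 1.94, 2.84 and 2.09 in XXM mice and 2.22, 2.76, 2.76, 2.71 and 2.24 in XYM mice. Every female lay above every male, XYF F9 being the nearest to them. Its log2 difference was -1.57 (adjusted p = 2.84e-06 from limma, between 1.77e-07 and 0.0112 over the alternatives). Trbv13-1 had values of 5.23, 5.49, 5.13, 5.29 and 5.52 in XXF mice, 4.85, 5.41, 5.04 and 3.83 in XYF mice, 3.62, 3.96, 3.24, 3.32 and 2.40 in XXM mice and 2.38, 3.96, 3.15, 3.84 and 3.56 in XYM mice. Only XYF F9 overlapped with males, lying between XXM 2 and XXM 5, and XXM 8 and XYM 9 were the lowest.

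The difference of Trbv13-1 was -1.72 (adjusted p = 9.01e-05 from limma, between 5.90e-06 and 0.324 over the alternatives). Trbv13-2, the most used segment and one whose protein pairs with the invariant alpha chain of NKT cells, had values of 5.67, 5.89, 5.5, 5.76 and 6.02 in XXF mice, 5.15, 5.46, 5.22 and 4.43 in XYF mice, 3.48, 3.89, 3.74, 4.0 and 3.70 in XXM mice and 3.56, 4.44, 4.35, 4.72 and 4.39 in XYM mice. All females but XYF F9 lay above all males. Its difference was -1.39 (adjusted p = 6.24e-06 from limma, between 3.58e-08 and 0.0279 over the alternatives). Among Trav genes the largest difference was that of Trav16n, with values of 2.91, 2.11, 2.30, 2.75 and 2.19 in XXF mice, 2.26, 2.97, 2.49 and 2.29 in XYF mice, 0.77, 0.44, 1.04, 1.21 and 1.07 in XXM mice and 1.04, 2.02, 0.65, 2.27 and 2.77 in XYM mice. The XXM mice lay below every female, while XYM 15 and XYM 16 lay among the females. Its difference was -1.15 (adjusted p = 0.00188 from limma, between 0.000545 and 0.239 over the alternatives), and since its windows are shared with Trav16d-dv11 and Trav16 (50.5% its own), part of its reads may belong to those copies. The other called Trbv genes were Trbv1, Trbv2, Trbv3, Trbv4, Trbv5, Trbv12-2, Trbv13-3, Trbv14, Trbv15, Trbv16, Trbv17, Trbv19, Trbv20, Trbv26 and Trbv31, with differences from -1.59 (Trbv4) to -0.81 (Trbv19). The other called Trav genes were Trav14d-3-dv8 (-1.12), Trav14-1 (-0.99), Trav8-1 (-0.95), Trav19 (-0.79), Trav14n-3 (-0.77), Trav9-4, Trav13-4-dv7, Trav13-1, Trav3-3, Trav8n-2, Trav7-5, Trav12-2, Trav16, Trav14-2, Trav6d-5, Trav5-4, Trav7-1, Trav17, Trav15-1-dv6-1, Trav8d-1 and Trav9-2 (-0.59). The 4 tested Trbv genes not called were Trbv21, Trbv23, Trbv24 and Trbv30, which had the lowest levels, the last 2 of them named after their values were seen.

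Without both XYF F9 and XYM 9 the count of called members was 40 of 1289 called genes, beside 40 of 1039 with all mice, and 36 genes were in both. Of the 40 called with all mice, the 18 Trbv genes and 10 of the 22 Trav genes were called whichever single mouse was left out. With the T cell marker level as a covariate in the fit, 4 members of 2567 called genes were called, Trbv2, Trbv12-1, Trbv13-2 and Trav4-2, the last outside the 40 and named after its values were seen. Markers of other cells moved beside the V genes, and their part in the difference was not tested. Of 8 B cell markers 6 were called higher in males, and the log2 of their summed RPKM, led by Cd79b, was 11.57, 11.49, 11.28, 11.49 and 11.45 in XXF, 10.64, 11.34, 11.39 and 10.41 in XYF, 11.96, 12.10, 11.95, 11.97 and 11.84 in XXM and 11.18, 11.88, 11.61, 11.93 and 11.81 in XYM mice. All 5 erythroid markers tested were called lower in males, and their summed log2 level, led by Hba-a1, was 11.26, 11.72, 12.48, 11.93 and 11.44 in XXF, 13.94, 11.82, 11.95 and 13.62 in XYF, 11.42, 11.03, 11.17, 10.66 and 11.65 in XXM and 11.44, 8.66, 10.25, 9.74 and 8.64 in XYM mice. All male and all female libraries carry running numbers in separate blocks, so the order of processing cannot be told apart from gonadal sex.

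**Figure D3:**
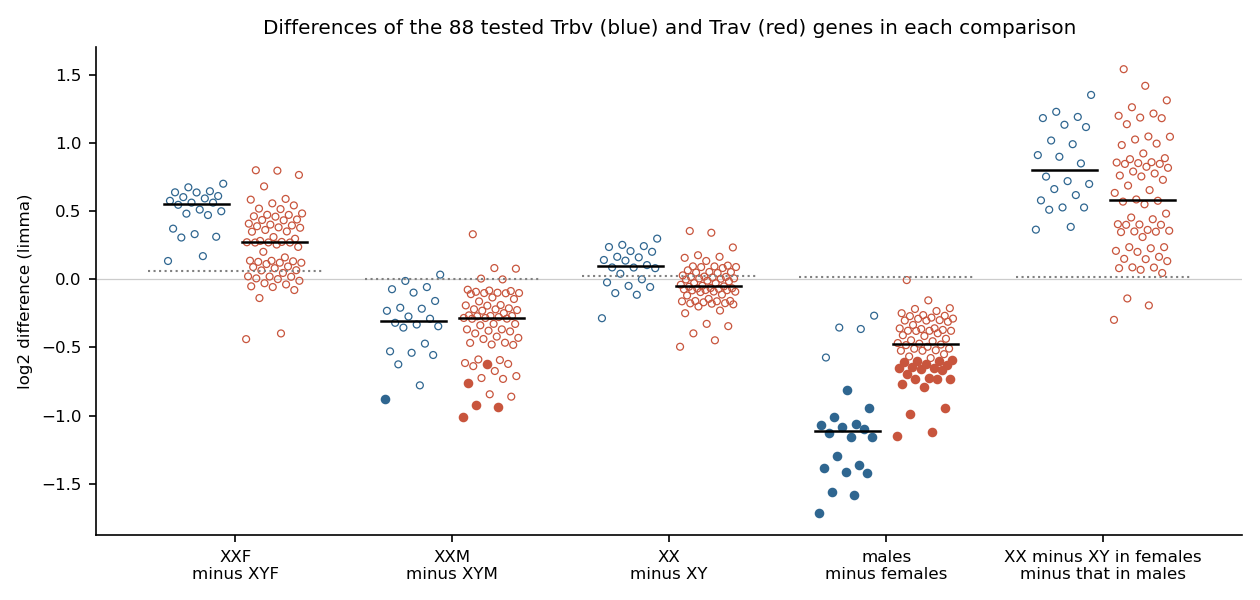
Each point is 1 of the 88 tested members, with its limma log2 difference on the y axis in each of 5 comparisons on the x axis, Trbv in blue and Trav in red; filled points were called, the black lines are the medians of each chain and the dotted line the median of all 14186 genes. Between males and females all 88 points lie below 0 with medians of -1.11 (Trbv) and -0.48 (Trav). The differences are of log2(RPKM + 1), where the added 1 shrinks those of weak genes, so the medians do not compare the chains. These points include 4 members that reached an RPKM of 0.5 in females alone, a sign that the filter favours. Of the 88, 64 passed the filter within each gonadal sex.

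XXM were compared with XYM mice to ask what the sex chromosomes do where the gonads are testes. Of the 88 differences, 82 lay below 0, with a median of -0.29 against 0.01 over all genes. An unadjusted p under 0.05 was found for 19 of the 88 and for 3846 of all 14186 genes. Trav6-5, Trav7-6, Trav13-1, Trbv19, Trav5-4 and Trav7-3 were called lower, 6 of 88, where 1.83% of all genes were called lower, and none was called higher. Trbv19, the segment called Vbeta6 in older naming, had log2(RPKM + 1) values of 3.53, 3.49, 3.13, 3.19 and 2.35 in XXM mice and 3.69, 4.34, 4.01, 3.94 and 4.09 in XYM mice. No XXM mouse reached the lowest XYM mouse, XYM 9, and XXM 8 lay farthest below. Its difference was -0.88 (adjusted p = 0.0664 from limma, between 0.00892 and 0.164 over the alternatives). Trav6-5 had values of 0.32, 0, 1.30, 0.42 and 0.41 in XXM mice and 0.83, 2.12, 1.47, 1.5 and 1.57 in XYM mice. XXM 6, with 8 reads, was the only XXM mouse above XYM 9, which had 5 reads. Its difference was -1.01 (adjusted p = 0.0727 from limma, between 0.0120 and 0.184 over the alternatives).

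Trav7-6 had values of 0.31, 0.45, 0, 0 and 1.09 in XXM mice and 1.05, 1.60, 0.91, 1.41 and 1.56 in XYM mice, where XXM 8 with 7 reads lay among the XYM mice and the other XXM mice had between 0 and 2 reads. The difference was -0.94 (adjusted p = 0.0595 from limma, between 0.00918 and 0.145 over the alternatives). Trav13-1 had values of 0, 1.70, 1.21, 1.70 and 1.32 in XXM mice and 1.08, 2.08, 2.79, 2.42 and 2.17 in XYM mice. XXM 2 had no read of it among 121 Trav reads, which allows up to 3.08% (upper bound of the 95% Wilson interval), and XYM 9 lay among the XXM mice. The difference was -0.92 (adjusted p = 0.0985 from limma, between 0.0380 and 0.251 over the alternatives). Trav5-4 had values of 0.56, 1.65, 0.92, 1.40 and 0.84 in XXM mice and 1.04, 1.82, 1.85, 2.37 and 2.12 in XYM mice, overlapping through XYM 9 alone, with a difference of -0.76 (adjusted p = 0.0976 from limma, between 0.0368 and 0.251 over the alternatives). Trav7-3 had values of 0.32, 0.80, 0.94, 0.59 and 0.58 in XXM mice and 1.17, 1.32, 1.48, 1.15 and 1.21 in XYM mice. These groups did not overlap, and the difference was -0.62 (adjusted p = 0.0868 from limma, between 0.0335 and 0.219 over the alternatives). Windows found in no other gene made up 35.9% of Trav6-5, 57.7% of Trav7-6, 55.5% of Trav13-1, 57.0% of Trav5-4 and 29.8% of Trav7-3, so reads of related copies may be counted on them.

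This count depended on single libraries. It was 0 without XXM 2, XXM 5 or XYM 12, where 51, 84 and 82 of all genes were called, and 1 without XXM 6, XYM 13 or XYM 16, where 97, 64 and 88 were. It was 3 of 295 called genes without XXF F4, 18 of 778 without XYM 9 and 20 of 876 without both XYF F9 and XYM 9. With the T cell marker level as a covariate it was 14 of 1092 called genes, beside 6 of 420 without it, and the 6 genes were among the 14. It was 3 with limma-voom and 1 with the compared groups alone, each of them among the 6. Over the alternatives it ran from 0 to 20. Markers of other cells were also called, and their part in the difference was not tested. Of 8 B cell markers Pax5 was higher in XXM mice, as were Hba-a1 of 5 erythroid and Gzma, Klra8, Klrb1c and Klre1 of 6 NK cell markers, and Ly6c2 of 8 myeloid markers was lower. The log2 of the summed RPKM of the NK cell markers, led by Gzma, was 8.70, 8.42, 8.68, 8.59 and 8.42 in XXM and 6.03, 7.59, 7.61, 8.19 and 7.25 in XYM mice, and that of the myeloid markers, led by S100a9, was 12.68, 12.54, 12.67, 12.29 and 12.09 in XXM and 15.51, 11.68, 13.05, 12.05 and 11.81 in XYM mice.

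The same comparison in females gave differences of 0.31 for Trbv19, 0.02 for Trav6-5, 0.28 for Trav7-6, 0.13 for Trav13-1, 0.44 for Trav5-4 and 0.27 for Trav7-3, none of them called. The test of the difference between females and males gave 1.19 (adjusted p = 0.132 from limma) for Trbv19, 1.03 (0.167) for Trav6-5, 1.22 (0.131) for Trav7-6, 1.05 (0.194) for Trav13-1, 1.2 (0.133) for Trav5-4 and 0.89 (0.135) for Trav7-3.

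**Figure D4:**
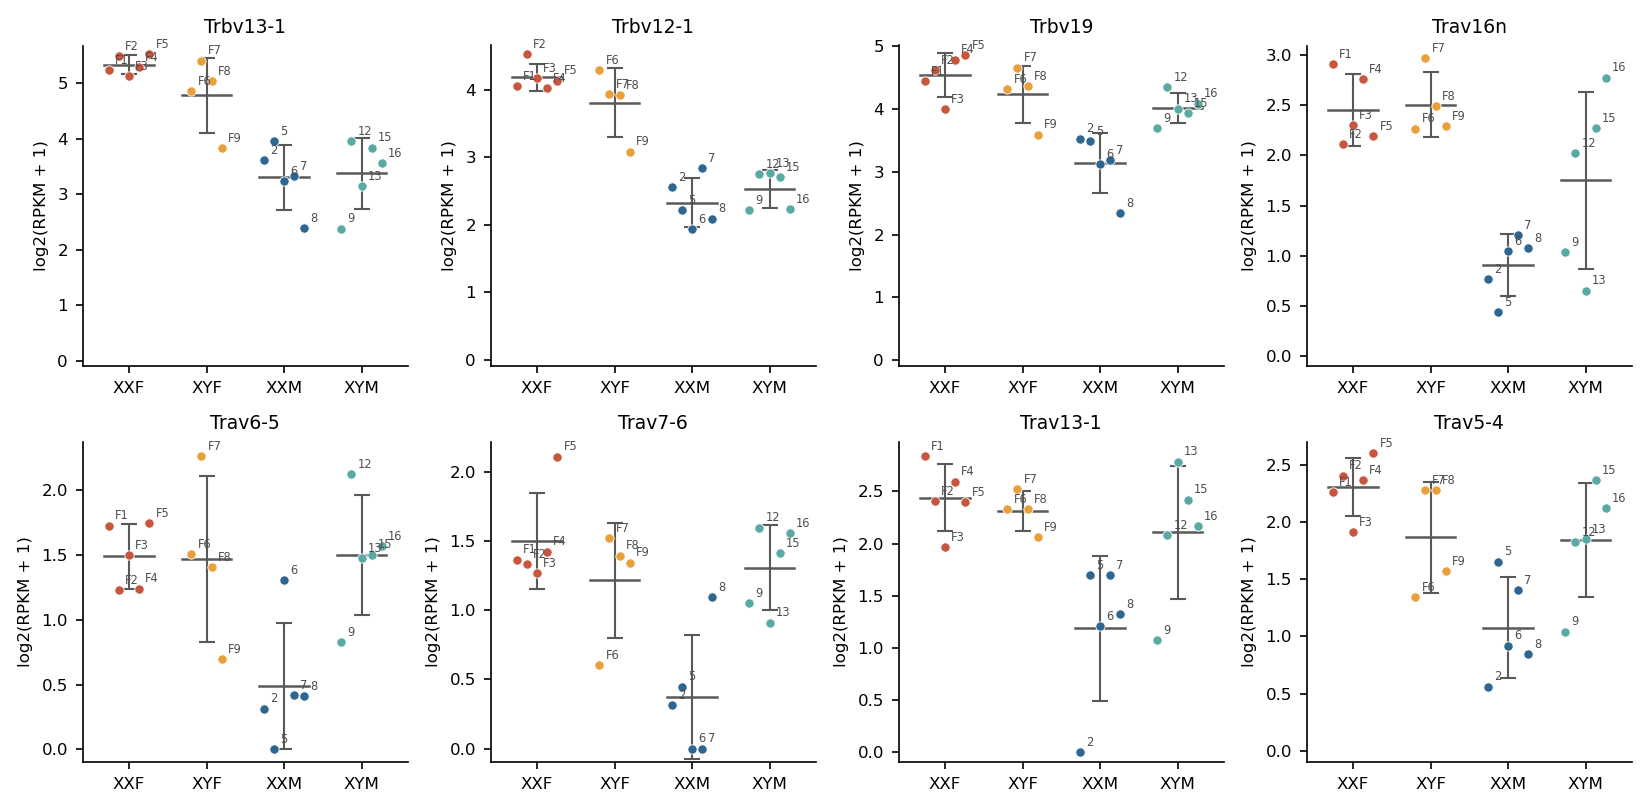
Each point is a mouse, by group on the x axis, with log2(RPKM + 1) on the y axis, for Trbv13-1, Trbv12-1, Trbv19, Trav16n, Trav6-5, Trav7-6, Trav13-1 and Trav5-4; lines are means and bars 1 SD. Trbv12-1 separates all females (3.08 to 4.53) from all males (1.94 to 2.84), and Trbv19 separates XXM (2.35 to 3.53) from XYM mice (3.69 to 4.34).

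XXF were compared with XYF mice to ask the same where the gonads are ovaries. Of the 88 differences, 79 lay above 0, with a median of 0.34 against 0.06 over all genes. The T cell marker level was higher in XXF mice by 0.42 on the log2 scale, and divided by it the summed levels differed by 0.16 (Trbv) and 0.07 (Trav). Of 6 NK cell markers 5 were called higher in XXF mice, and the log2 of their summed RPKM, led by Gzma, was 8.59, 8.79, 8.75, 9.06 and 8.95 in XXF mice and 7.19, 7.95, 7.36 and 6.35 in XYF mice. Of 8 B cell markers Cr2 was called higher in XXF mice, and of 6 plasma cell markers Tnfrsf17 was called lower. XXF minus XYF of the mean log2 level was 0.46 for B cell, -0.41 for plasma cell, -0.74 for myeloid and -0.80 for erythroid markers. No myeloid or erythroid marker was called. The part of all these markers in the differences was not tested. None of the 88 was called by limma, where 1.38% of all genes were called, and limma-voom called 1, Trbv13-2. An unadjusted p under 0.05 was found for 14 of the 88 and for 2655 of all 14186 genes. The values of Trbv13-2 given above lay higher in all XXF mice than in any XYF mouse (log2 difference 0.70, adjusted p = 0.115 from limma). Trav14d-3-dv8, a segment shared with the delta chain, had values of 2.77, 2.86, 2.08, 2.27 and 2.43 in XXF mice and 1.44, 2.50, 1.79 and 1.11 in XYF mice. XYF F7 lay among the XXF mice and the other XYF mice below them (log2 difference 0.77, adjusted p = 0.117 from limma). Trav10, named after its values were seen, had the lowest adjusted p of the members (0.109 from limma, log2 difference 0.80), with values of 2.26, 1.35, 1.61, 2.36 and 2.25 in XXF mice and 1.52, 1.36, 1.22 and 0.56 in XYF mice, which overlapped. The count was 9 without XYF F7, 4 without XXF F3, 3 without XYF F8, 3 without XYM 9, 1 without XXF F2 and 0 without both XYF F9 and XYM 9, where 850, 202, 374, 417, 136 and 127 of all genes were called, in that order, and 196 with all mice.

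Averaged over gonadal sex, XX and XY mice were compared to ask what the sex chromosomes do in either kind of mouse, and members lay on both sides of 0 (42 above, 46 below, median -0.01 against 0.03 over all genes). None was called by limma or limma-voom, where 1.72% of all genes were called, and 4 of the 88 had an unadjusted p under 0.05, beside 3234 of all 14186 genes. The lowest difference was that of Trav6-5 at -0.49 (adjusted p = 0.159 from limma). Trav6-5 was called without both XYF F9 and XYM 9 (-0.71), 1 of 185 called genes, and the count was 1 of 226 without XXM 6, beside 0 of 244 with all mice. The difference of the XX against XY effect between females and males was above 0 for 85 of 88 members, with a median of 0.68 against 0.02 over all genes. The same contrast was 0.53 for the T cell marker level and -1.67 for the mean log2 level of the 5 erythroid markers, whose part was not tested. It was called by limma and limma-voom for none of them, where 0.0846% of all genes were called, and 35 of the 88 had an unadjusted p under 0.05, beside 2979 of all 14186 genes. Trav4-4-dv10 had the largest such difference, 1.55 (adjusted p = 0.147 from limma), with values of 2.56, 2.56, 1.88, 2.55 and 2.73 in XXF, 2.08, 2.38, 2.07 and 0.56 in XYF, 1.58, 1.52, 1.42, 1.91 and 0.74 in XXM and 1.18, 2.32, 3.31, 1.87 and 2.81 in XYM mice. XYF F9 was the lowest of all mice and XYM 13 the highest. The count was 34 of 1694 called genes without XYM 9, 20 of 1197 without XXF F3, 12 of 749 without XYF F8, 8 of 808 without XYM 15 and 13 of 782 without both XYF F9 and XYM 9.

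As shares of all Trbv RPKM in a mouse, Trbv3 or Trbv13-2 led in most mice. The Trbv13 subgroup took 25.7% ± 0.491 (SD, n = 5) of it in XXF mice, 24.3% ± 1.51 (SD, n = 4) among XYF, 21.5% ± 1.06 (SD, n = 5) among XXM and 21.5% ± 1.27 (SD, n = 5) among XYM mice. Trbv13-1 took 8.06, 8.03, 7.90, 7.52 and 7.98% in XXF mice, 7.31, 8.96, 8.35 and 7.23% in XYF mice, 7.91, 7.89, 5.90, 5.80 and 4.10% in XXM mice and 3.71, 6.17, 4.05, 5.38 and 5.58% in XYM mice. Its share was below that of every female in all XYM mice and in XXM 6, 7 and 8, and within the female range in XXM 2 and 5. Trbv19 took 4.57, 4.31, 3.49, 5.24 and 4.98% in XXF mice, 4.95, 5.26, 5.14 and 6.03% in XYF mice, 7.41, 5.54, 5.4, 5.24 and 3.92% in XXM mice and 10.5, 8.18, 7.75, 5.80 and 8.26% in XYM mice. In XYM 9 it was the most used Trbv segment, with 80 of 742 Trbv reads (10.8%, 95% Wilson interval 8.75 to 13.2%, counting error only), although its level there was the lowest of the XYM mice. Trbv3 led in all 5 XXM mice, with 11.4, 13.7, 10.6, 11.7 and 12.1%, against 8.74 to 10.9% in XXF, 8.43 to 11.7% in XYF and 7.47 to 12.2% in XYM mice. Trbv13-2 led in XXF F1, F2, F4 and F5, XYF F7 and F9 and XYM 15, Trbv3 in the other females and in XYM 12 and 13, and Trbv15 in XYM 16. No share was tested.

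**Figure D5:**
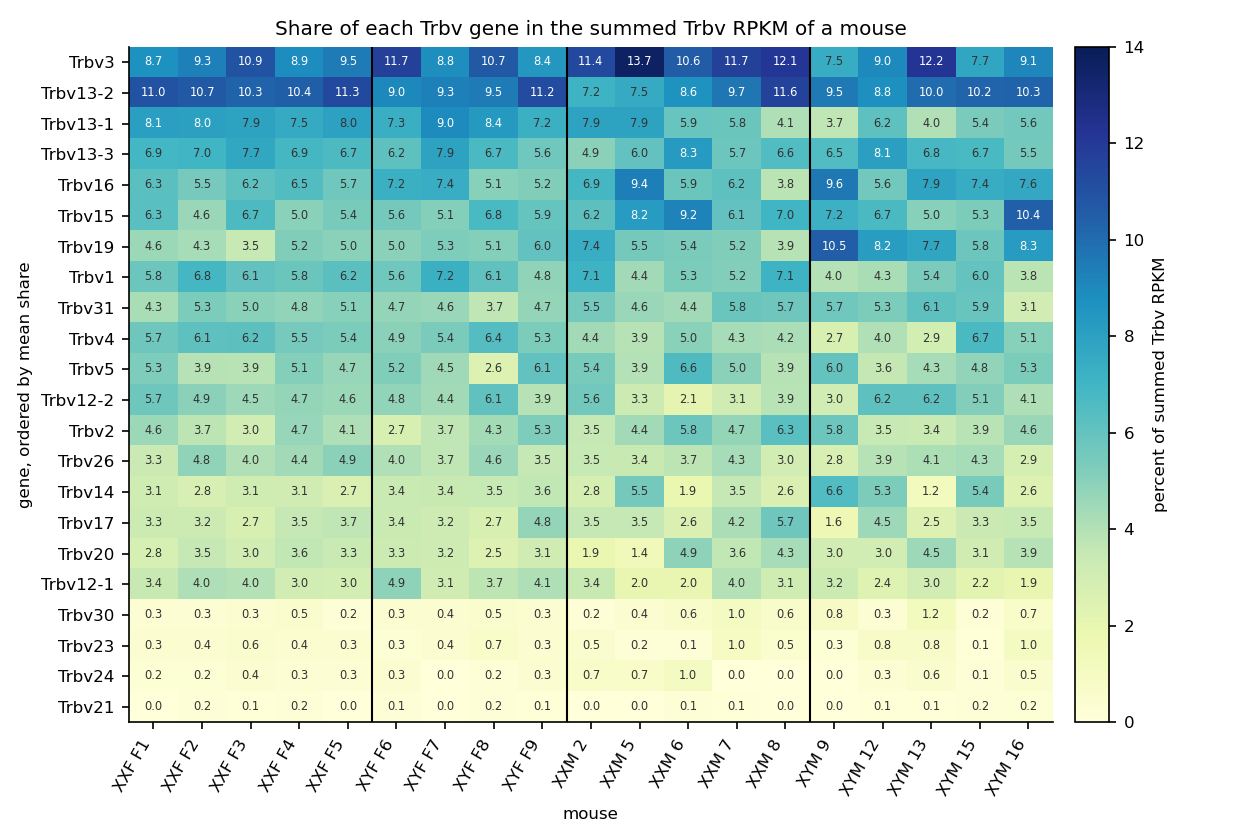
The heatmap gives the share of each of 22 Trbv genes (y axis) in the Trbv RPKM of each of 19 mice (x axis, by group), in percent by colour. Trbv3 and Trbv13-2 are the darkest in most mice, and Trbv19 reaches 10.5% in XYM 9.

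The spread of segment use between mice of a group was set beside read counting. Over the 21 Trbv genes with enough reads, chi-square per degree of freedom, which is near 1 when mice differ by counting alone, was 1.41 in XXF, 2.63 in XYF, 2.54 in XXM and 3.97 in XYM mice. Over 38 Trav genes it was 1.33, 1.68, 1.56 and 2.29 in the same order. Separate mice and PCR copies of a molecule raise these values, and no cause was tested. The share of Trbv use that would have to move to make a pair of mice alike had a median of 5.59% in XXF, 9.48% in XYF, 13.9% in XXM and 14.2% in XYM mice, a measure that also rises with fewer reads. Trbv14 varied widely among XYM mice, with shares of 6.56, 5.32, 1.19, 5.42 and 2.55%, and among XXM mice, with 2.85, 5.54, 1.87, 3.52 and 2.61%, against 2.68 to 3.13% in XXF and 3.36 to 3.65% in XYF mice. The effective number of Trbv genes, the number of equally used genes that would give the same entropy, was 17.4 on average and lay between 16.6 (XXM 5) and 17.9 (XXM 7). For Trav genes it was 50.1, 53.1, 47.7, 53.9 and 55.6 in XXF mice, 54.2, 52.8, 53.8 and 47.1 in XYF mice, 33.5, 40.7, 49.0, 47.4 and 46.6 in XXM mice and 47.2, 46.8, 44.2, 44.7 and 48.8 in XYM mice. XXM 2, with 121 Trav reads, was the lowest, and few reads lower this number by themselves. Trav4-4-dv10 took 59 of 575 Trav reads in XYM 13 (10.3%, 95% Wilson interval 8.04 to 13%), the largest share of any Trav gene in a mouse, and Trav3-3 took 42 of 525 in XYM 15 (8.0%, interval 5.97 to 10.6%).

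The alpha segments of the invariant receptors had few reads. Trav11, which joins Traj18 in NKT cells, had 1 read, in XXF F4, and its copy Trav11d 1 read, in XXM 6. They are 99.7% identical in the V exon and have no own window, while Trav11n, named after its values were seen, had 13 reads. Traj18 itself had 2 to 38 reads per mouse and was called lower in males (-1.05, adjusted p = 0.0767 from limma). So were 27 of the 64 J genes, and Trac differed by -1.09, so the value is not particular to NKT cells. Trav1, which joins Traj33 in MAIT cells, had 71 reads over all mice, from 0 in XXM 2, XXM 8 and XYM 9 to 12 in XYF F8, and was called in no comparison. Trbv1, Trbv13-1, Trbv13-2 and Trbv13-3 are described above among the most used segments, and Trbv29 is not among the listed genes and was not analysed here. Zbtb16, the transcription factor of NKT and MAIT cells, was not called between males and females (-0.05, adjusted p = 0.691 from limma).

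The genes that work with the V segments followed several patterns. All 7 constant and CD3 chain genes were called lower in males (median -1.27), among them Trac (-1.09, adjusted p = 0.000123 from limma) and Trbc2 (-1.27, adjusted p = 0.000247). Of 64 J genes 27 were called lower in males (median -0.64), beside 5.36% of all genes, and Traj3 was the only one called between XXM and XYM mice (-2.35, adjusted p = 0.0516 from limma), with 1, 1, 1, 0 and 0 reads in XXM and 7, 13, 10, 2 and 17 in XYM mice. Of 12 tested delta and gamma chain genes none was called lower in males (median -0.19), and Trdv4 was called higher in males (0.61, adjusted p = 0.0717 from limma), in XXF mice beside XYF mice (1.37, 0.0760) and in XX mice beside XY mice (0.77, 0.0943). Of 6 coreceptor and costimulation genes, Cd28, Cd8a and Cd8b1 were called lower in males, and Cd28, Cd4, Cd8a and Cd8b1 lower in XXM than in XYM mice. Cd28 alone of these was called in the test of the difference between females and males (1.35, adjusted p = 0.0546 from limma). Cd8b1, the beta chain of the coreceptor of cytotoxic T cells, had log2(RPKM + 1) values of 7.05, 7.25, 7.22, 6.94 and 7.12 in XXF, 7.11, 7.42, 6.94 and 6.07 in XYF, 5.41, 5.35, 4.54, 4.23 and 4.90 in XXM and 5.18, 5.86, 5.39, 6.13 and 6.04 in XYM mice. All females lay above all males but XYM 15, which exceeded XYF F9, and XXM mice overlapped with XYM 9 and XYM 13. Its difference was -1.70 between males and females (adjusted p = 1.07e-05 from limma) and -0.83 between XXM and XYM mice (adjusted p = 0.0863).

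Among receptor signalling genes, Lat, Lck, Prkcq, Themis and Zap70 were called lower in males, and Plcg1 and Themis lower in XXM than in XYM mice. Of 7 transcription factors of T cells, Bcl11b, Lef1 and Tcf7 were called lower in males, Tcf7 lower in XXM than in XYM mice (-0.78, adjusted p = 0.0798 from limma) and Lef1 higher in XXF mice beside XYF mice (0.77, adjusted p = 0.0913). None of the 12 tested genes of V(D)J recombination was called in any comparison, and of the 3 tested thymocyte markers Cd1d1 was called higher in XXF mice beside XYF mice and in XX mice beside XY mice, with none called between males and females. NK cell markers differed mainly by sex chromosomes: of 6, XX exceeded XY females in 5 called genes and XX exceeded XY males in 4, and only Klra8 was called between males and females. Klrb1c, a receptor of NK cells, had values of 4.69, 4.67, 4.72, 4.87 and 4.90 in XXF, 3.14, 3.88, 3.58 and 2.61 in XYF, 4.29, 4.43, 4.61, 4.84 and 4.39 in XXM and 2.58, 3.92, 3.95, 4.09 and 3.45 in XYM mice. In each gonadal sex all XX mice lay above all XY mice (differences of 1.46, adjusted p = 0.0115 from limma, and 0.91, adjusted p = 0.0727).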

How the data were processed

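RNA sequencing of splenocytes from 19 mice, 7 days after immunization, was read from the deposited table of 27179 genes. The authors made log2 values of RPKM + 1 from read counts, and the deposited log2 RPKM values were used as they stand. Per the submitters' processing notes, reads were aligned to GRCm38 with Subread and counted with featureCounts, and strand and multiple-match settings are not given. The labels and the methods name different library kits. Library sizes and reads were inferred from the RPKM values and annotated gene lengths. For each gene the smallest length that gave whole reads in every mouse was taken. Counts of genes with very few reads may therefore be too low. By this inference each mouse had 11263753 to 19962022 reads.

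The 14186 genes that reached an RPKM of 0.5 in 4 or more mice entered limma 3.58.1 in R 4.3.3, with trended variance, 1 mean per group and Benjamini-Hochberg correction over all of them. Calls needed an adjusted p under 0.1 and a change over 1.5 times in RPKM + 1. Summaries used Python 3.11.15, scipy 1.17.1, pandas 2.3.3 and numpy 2.4.6, figures matplotlib 3.10.9, and GENCODE vM21 served for windows of 51 bases. Members, gene lists and comparisons were chosen with earlier results of these data known. Named genes are the 8 Trbv and 8 Trav genes of highest mean RPKM, every called member, the largest and smallest SD per chain, segments of invariant receptors, members with 1 mouse apart, and list genes. Shares carry 95% Wilson intervals, which cover counting error only. Alternatives covered pseudocount, filter, scaling, thresholds, T cell markers as a covariate, limma-voom, subgroup sums and each mouse left out. The plasma cell and erythroid lists each lacked 1 gene in the table. Some results of the signalling and the invariant T cell lists are not reported here.

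Each group holds 4 or 5 mice, so small differences are missed. V gene reads are few, above all for Trav genes in XXM mice (121 to 274 per mouse), and values near 0 rest on single reads. Whole spleen cells were measured, without sorting of T cells, so cell number and RNA per cell are mixed. The study lysed red blood cells while preparing the splenocytes. How much erythroid RNA that step left in each library was not tested. Reads of near-identical Trav copies cannot be assigned with certainty. The receptor clones themselves, their joined segments and their antigens were not measured. No batch is stated and the groups follow each other in the library numbering, so an effect of processing order was not tested. The library titles of the XXM mice, and no others, carry the added word Fanko. Its meaning is not stated, and whatever it marks cannot be told apart from the XXM group.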

Additional observations from a re-analysis of the deposited data

Results flagged for a closer look

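A mouse far from the others of its group was looked for in 252 groups of values, where chance flags about 1 in 20 groups, or 12.6 in all, and 15 were found. The log2 summed Trav level was 5.20 in XYM 9, against 6.30 to 6.54 in the other XYM mice. The 14 others are shares of a gene in the RPKM of its chain, in percent.

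Higher than the rest of the group were Trav7-6 in XXM 8 (3.37, others 0 to 0.83), Trav14-3 in XXF F3 (3.20, others 1.99 to 2.23), Trav17 in XXM 7 (2.20, others 0.83 to 1.17), Trav14d-3-dv8 in XYF F7 (3.66, others 1.97 to 2.16) and in XYM 9 (3.16, others 0.791 to 1.48), Trav6d-5 in XXM 2 (4.18, others 0.370 to 1.18) and in XYM 9 (1.27, others 0.579 to 0.704), Trav21-dv12 in XXF F1 (2.89, others 1.39 to 1.79), Trbv23 in XXF F3 (0.551, others 0.342 to 0.391), and Trav6-5 in XXM 6 (3.68, others 0 to 0.971) and in XYM 12 (3.8, others 2.10 to 2.32). Lower than the rest were Trbv31 in XYF F8 (3.70, others 4.62 to 4.72) and in XYM 16 (3.06, others 5.33 to 6.14), and Trav9-4 in XYF F7 (1.35, others 2.21 to 2.37). XYM 16 had 36 Trbv31 reads of 1205 (2.99%, 95% Wilson interval 2.17 to 4.11%, counting error only). The causes were not tested.

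The XX against XY effect on Cd28 differed between females and males by 1.35 (adjusted p = 0.0546 from limma), being 0.56 in females and -0.79 in males.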

How the results depend on the processing

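No paired analysis was possible because each mouse belongs to 1 group and no pairing of mice is given. Values below are counts of called members of all genes called in the same fit unless said otherwise, and the causes of their changes were not tested.

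For XXF against XYF the count of 0 of 196 stayed 0 in 13 of 15 alternatives and was 1 of 195 with quantile normalization and 1 of 243 with limma-voom, and leaving out 1 mouse gave 0 to 9. For XXM against XYM the count of 6 of 420 was 3 of 211 with no filter, 1 of 121 with the compared groups alone, 0 of 85 at an adjusted p under 0.05, 14 of 1092 with T cell markers as covariate, 3 of 399 with limma-voom, 13 of 1696 with limma-voom and the covariate and 20 of 876 without both XYF F9 and XYM 9, and leaving out 1 mouse gave 0 to 18. For XX against XY the count of 0 of 244 was 1 of 223 with the covariate, 1 of 458 with limma-voom and the covariate and 1 of 185 without both mice, and leaving out 1 mouse gave 0 to 1. For males against females the count of 40 of 1039 was 64 of 1700 with a pseudocount of 0.1, 69 of 5468 with no fold threshold, 4 of 2567 with the covariate, 62 of 1714 with limma-voom and 4 of 3188 with limma-voom and the covariate, and leaving out 1 mouse gave 33 to 46. For the difference of the XX against XY effect between females and males the count of 0 of 12 was 6 of 1715 with the covariate, 4 of 1907 with limma-voom and the covariate and 13 of 782 without both mice, and leaving out 1 mouse gave 0 to 34. Limma-voom with the covariate and the fit without both mice were chosen after seeing the data.

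Males minus females of the summed level was -1.30 for Trbv (-1.45 to -1.21 leaving out 1 mouse) and -0.23 divided by T cell markers, and -1.05 for Trav (-1.15 to -0.93) and 0.0221, the opposite sign, divided by T cell markers. XX minus XY was 0.08 for Trbv (-0.06 to 0.16) and -0.07, the opposite sign, divided by T cell markers, and -0.21 for Trav (-0.34 to -0.13) and -0.37 divided by T cell markers. The effective number of genes was 17.4 for Trbv (17.4 to 17.4) and 48.3 for Trav (47.9 to 49.1), and by subgroup 12.9 and 13.7.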
